A study of Homo sapiens with 2 samples.

Results

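The replicative helicase genes examined here were the 10 *MCM* and *GINS* genes *MCM2*, *MCM3*, *MCM4*, *MCM5*, *MCM6*, *MCM7*, *MCM10*, *GINS1*, *GINS2* and *GINS3*, out of 14812 named genes on the arrays. They were chosen by name, as the genes with a probe set that the platform annotation gives to that 1 symbol, and all 10 had 1 probe set each. They were put together with their differences between these 2 arrays already known, so every value below is a description and none is a test. A probe set pools several short probes against the same transcript.

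HT29, a human cell line grown from a colon cancer, was transfected with an siRNA against *REG4* (siREG4) or with a control siRNA (siControl), and total RNA was hybridised to 1 Affymetrix array per group. *REG4* encodes a small secreted lectin. With no replicates, the precision of each difference is limited by the number of arrays. The treatment field of the siREG4 array names GATA6 in place of REG4, and its title was followed. The study's methods list a pair of *REG4* siRNAs, and neither the one used for the array nor the time from transfection to RNA extraction is stated there. No probe set was named *REG4* (0 probe sets), so the silencing itself was not analysed here.

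The deposited values were centred per probe set: the siControl and siREG4 values of a gene are equal in size and opposite in sign, and the signal level is lost. Levels can therefore not be compared between genes, and markers of colon cells cannot show what the cells were. All values are on a log2 scale whose base was assumed. In bulk RNA, fewer cycling cells and less RNA of a gene per cell cannot be told apart.

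MCM2 to MCM7 form a ring-shaped motor that is loaded around DNA in the G1 phase by the origin recognition complex with CDC6 and CDT1. The ring stays inactive until S phase, when the kinase CDC7 with its partner DBF4 acts on it and CDC45 and the GINS complex bind, which gives the working helicase known as CMG. GINS is built from GINS1, GINS2, GINS3 and GINS4, and MCM10 is needed for the assembled helicase to open the DNA and move. Transcription of many of these genes is known to be under E2F factors, which bind short GC-rich motifs close to start sites.

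The promoters of the members were read for such motifs. Since E2F control of many of these genes was known beforehand, a high share of matches is not an independent finding. RefSeq promoter windows of GRCh38.p14, from 250 bases before to 50 bases after the start site, were at hand for 8 of the 10 members, *MCM2*, *MCM3*, *MCM6*, *MCM7*, *MCM10*, *GINS1*, *GINS2* and *GINS3*. The E2F motif was searched on both strands as TTTCCCGC, TTTGGCGC, TTTCGCGC and TTTGCCGC. At least 1 of these was found in 7 of the 8 members, against 3.99% of 27305 genes with a window. *MCM10* was the member without a match. The stretches of 30 bases that hold the matches are given 5′ to 3′ on the strand of the gene, with the matched bases in capitals. The motif matched is not the same in all of them, and the flanks differ.

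*GINS1*, chr20:25407667-25407696, plus strand: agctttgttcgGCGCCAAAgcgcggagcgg
*GINS2*, chr16:85688967-85688996, minus strand: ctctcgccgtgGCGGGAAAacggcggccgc
*GINS3*, chr16:58392455-58392484, plus strand: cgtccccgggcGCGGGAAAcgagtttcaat
*MCM2*, chr3:127598404-127598433, plus strand: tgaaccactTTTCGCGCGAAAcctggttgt
*MCM3*, chr6:52284898-52284927, minus strand: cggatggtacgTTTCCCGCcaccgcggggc
*MCM3*, chr6:52284728-52284757, minus strand: agttcggaagtTTTCGCGCcggggtggagt
*MCM6*, chr2:135876575-135876604, minus strand: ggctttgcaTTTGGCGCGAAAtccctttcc
*MCM6*, chr2:135876513-135876542, minus strand: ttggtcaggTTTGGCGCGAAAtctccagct
*MCM7*, chr7:100101566-100101595, minus strand: cagctcggaccGCGGGAAAcccggcgcctg
*MCM7*, chr7:100101388-100101417, minus strand: ggggggcgacgTTTCGCGCcaatttcggtt

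In *MCM2* and at both places in *MCM6*, matches on the opposite strands overlap, so that the capitals there run over 12 bases and count as 2 matches each. The matches in *GINS1* and *MCM2* begin at positions 6 and 3, counted from 1 at the start site, and those of *GINS2* and *GINS3* at positions -31 and -5 before it. *MCM7* has 3 annotated start sites, and its matches belong to 1 of them. A CCAAT box, the motif of the factor NF-Y, was found in 6 of the 8 members (not in *MCM2* and *GINS3*), against 39.7% of all genes with a window. At the *MCM7* start site it shares 1 base with the E2F match. A CHR motif, the element of many genes of mitosis, searched as TTTGAA and TTCGAA, was found in 1 member, *MCM6*, against 19.5% of genes. These matches are letters in a window and were not tested as binding sites.

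**Figure D1:**
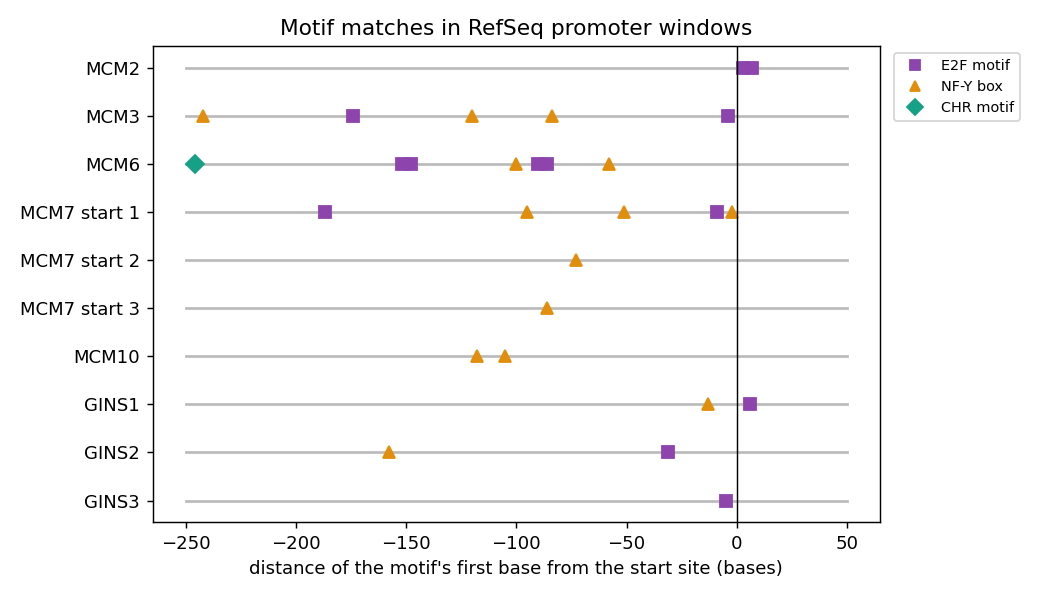
Motif matches in the promoter windows of the 8 members with a window, 1 line per start site. The horizontal axis gives the distance in bases of a match's first base from the start site (vertical line), and squares, triangles and diamonds are E2F, NF-Y and CHR motifs. E2F matches lie in 7 of the 8 members, several of them close to the start site.

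The first question was how the helicase genes differed between control and *REG4* siRNA. All 10 were lower in the siREG4 array, where 48.7% of all named genes were below 0. At the fold threshold of 1.4 that the study's methods use, 6 of the 10 members were lower and 0 higher. Of all 14812 named genes, 1.67% were lower and 1.51% higher past 1.4-fold. The members were picked with these values known, so the count is not evidence of a direction. Their median difference was -0.57, against 0.0 over all named genes.

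*GINS1* had the largest difference of the 10 members. Its value was 0.69 in the siControl array and -0.69 in the siREG4 array, a difference of -1.39. That is 2.62-fold lower, or 38.2% of the control. It was also the lowest of all 14812 named genes, at rank 1.

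*GINS2* was at 0.31 in siControl and -0.31 in siREG4, a difference of -0.62 (1.53-fold lower, rank 104 of the named genes from the lowest). *GINS3* was at 0.0079 and -0.0079, a difference of -0.02 that left it at 98.9% of the control, with rank 6339. Genes whose proteins sit in a single 4-part complex thus ran from the lowest named gene of the arrays to one near the middle of all genes. Both *GINS2* and *GINS3* hold the same 8-letter E2F match, GCGGGAAA on the strand of the gene, and their differences were -0.62 and -0.02.

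*GINS4*, the remaining subunit, is not among the 10 members and is given here because it completes the complex. Its pair of probe sets went in opposite directions, at -0.32 and 0.10, with a mean of -0.11. Such splits were common, as 263 of the 651 genes with several probe sets had both signs.

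*MCM10* was at 0.35 in siControl and -0.35 in siREG4. The difference of -0.70, 1.62-fold lower or 61.6% of the control, placed it second among the members and at rank 61 of all named genes. It was the member whose window held no match to the 4 E2F motifs searched, and other forms of the motif were not searched.

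The 6 ring genes lay close to one another. *MCM4* was at 0.31 in siControl and -0.31 in siREG4 (difference -0.61), *MCM6* at 0.29 and -0.29 (-0.58), and *MCM5* at 0.28 and -0.28 (-0.56). These 3 genes were lower past the threshold, at 65.4%, 66.8% and 67.9% of the control. *MCM2* was at 0.22 and -0.22 (difference -0.45), *MCM7* at 0.19 and -0.19 (-0.39) and *MCM3* at 0.17 and -0.17 (-0.34), and they fell short of it, at 73.4%, 76.6% and 79.3% of the control. The threshold thus ran through the middle of the ring, between *MCM5* and *MCM2*, whose differences lay 0.11 apart. In the ranking of all named genes the ring spanned ranks 108 to 683.

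**Figure D2:**
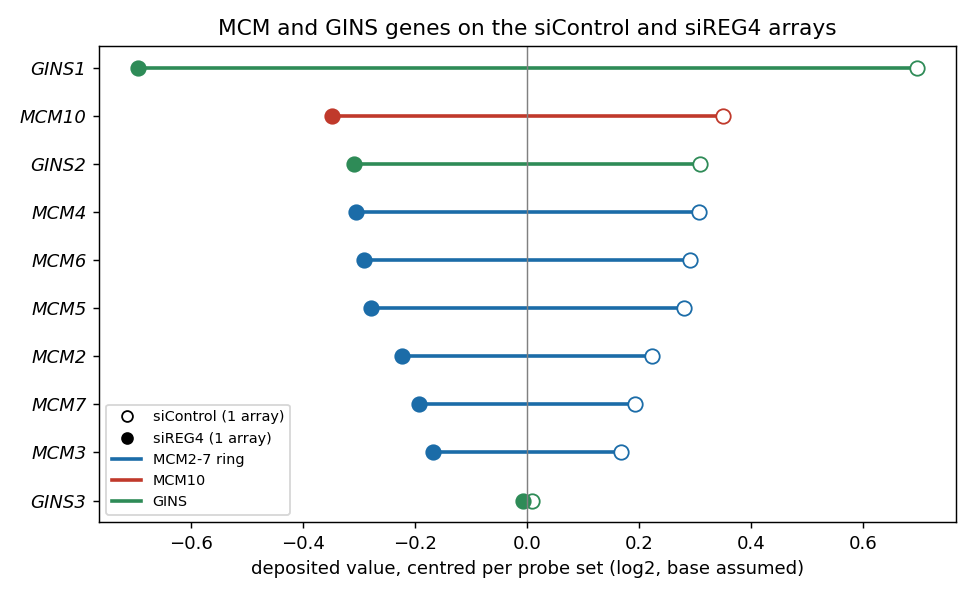
Deposited centred values (horizontal axis, log2 with the base assumed) of the 10 members on the siControl array (open circles) and the siREG4 array (filled circles), 1 array each, ordered by difference. In every member the siREG4 value is the lower one, and the distance shrinks from 1.39 for *GINS1* to 0.02 for *GINS3*.

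No spread between replicates exists to set these distances against. The nearest gauge was the keratin-associated protein (*KRTAP*) genes, structural genes of hair that colon cells are presumed not to use. The 85 named *KRTAP* genes, 1 of them an antisense transcript, had an SD of 0.09 across genes and ran from -0.22 to 0.30. All members but *GINS3* lay below that range. Of the 9 steps between neighbours in the order of the members, 3 exceeded 0.09: from *GINS1* to *MCM10* (0.69), from *MCM5* to *MCM2* (0.11) and from *MCM3* to *GINS3* (0.32). The SD is that of single genes, and a step is a difference between 2 genes, so this limit is lenient. The step of 0.11 is only just past it and is not taken as told apart. The other 6 steps were at most 0.08, so those neighbours in the order are not told apart by this gauge either. Genes further apart in the order were not compared in this way. The gauge covers dim probe sets only. Between probe sets of 1 gene, the median range was 0.08 over 651 genes, and 0.30 over the 15 of them whose mean was below -0.3.

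**Figure D3:**
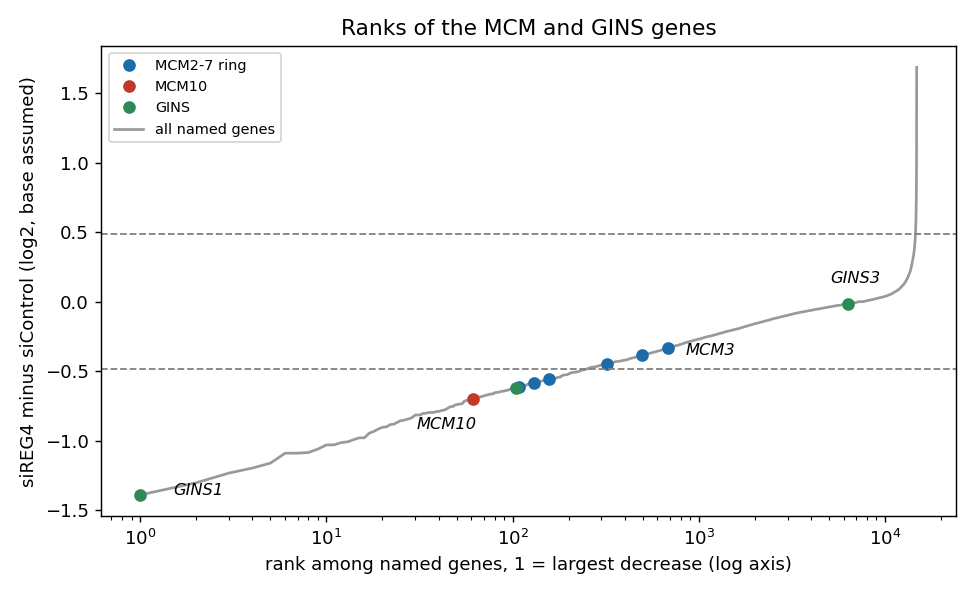
Difference between siREG4 and siControl (vertical axis, log2 with the base assumed) against the rank of each named gene from the lowest (horizontal log axis). Dots are the 10 members, the grey line is all 14812 named genes and dashed lines mark 1.4-fold. *GINS1* is at rank 1, 8 members lie between ranks 61 and 683, and *GINS3* is at rank 6339.

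Set beside one another, the ring had a median difference of -0.50 over 6 genes, the GINS subunits -0.62 over 3 genes and *MCM10* was at -0.70. The ring median was 0.12 above that of the GINS subunits. This order was set by which subunits were counted: with *GINS4* the GINS median was -0.36 and without *GINS1* it was -0.32, and in both cases the ring was the lower group, by 0.14 and 0.19. The ring genes covered a range of 0.28 and the 3 GINS genes a range of 1.37. The GINS range is set by *GINS1* and *GINS3*, with 1 probe set each. *GINS3* lay within the range of the *KRTAP* genes. With the signal level lost, a dim probe set cannot be told from an unchanged gene there.

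The working helicase also contains CDC45, which is recruited together with GINS. *CDC45* was at 0.21 in siControl and -0.21 in siREG4, a difference of -0.42. It lay close to *MCM2*, in the part of the order that did not reach the threshold. Over the 11 genes of the whole CMG helicase, with *GINS4* and *CDC45* included, all 11 were below 0 and the median was -0.45. Of the 11, 5 were lower past 1.4-fold. Of all named genes, 48.7% were below 0 and 1.67% lower past 1.4-fold. Most of the 11 are members picked with their values known. *GINS3* and *GINS4* lay within the range of the *KRTAP* genes, and the probe sets of *GINS4* went in opposite directions.

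Genes that load the ring had like values. *CDT1*, which brings the ring to the origin, differed by -0.56, and *CDC6*, its ATPase partner, by -0.55. They were the 2 measured genes of the 9 listed for loading, and both were lower past 1.4-fold. The genes of the origin recognition complex were not analysed here.

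Of the 8 measured genes that activate the helicase, 7 were below 0, with a median of -0.40, and 2 were lower past 1.4-fold. *CDC7*, the kinase that acts on the ring, was at -0.57, and *DONSON*, a factor of helicase assembly, at -0.49. *DBF4*, the subunit that switches CDC7 on, was at 0.03, and its relative *DBF4B* at -0.16. The kinase and its activating partner thus differed by unequal amounts. *DBF4* and *DBF4B* lay within the range of the *KRTAP* genes, where a dim probe set cannot be told from an unchanged gene.

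Of 29 listed partners at the fork, 8 were measured. Of these, 7 were below 0, with a median of -0.31, and 2 were lower past the threshold. These were *FEN1*, the flap endonuclease (-0.92), and *PCNA*, the sliding clamp (-0.57). *TIPIN*, a fork protection factor, was at -0.15 and *TOP1*, the topoisomerase that relaxes DNA ahead of the fork, at 0.08. Of 47 genes listed for loading, activation and the fork, only 18 were measured. Of these 18, 16 were below 0 and 6 were lower past 1.4-fold, against 1.67% of all named genes.

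Genes that take the helicase off the DNA did not share these values. The 8 measured genes had a median of 0.03, with 3 below 0 and 0 past the threshold in either direction. *LRR1*, the ligase receptor that marks the ring for removal, was the lowest at -0.41, followed by *CUL2*, its cullin, at -0.09. The highest were *NPLOC4*, a cofactor of the segregase VCP (0.12), and *UBXN7*, an adaptor between that segregase and the ligase (0.26).

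The relatives of the members by name or binding, with *GINS4* counted among them, had a median nearer to 0, though not every gene did. *MCMBP*, an MCM-binding chaperone, differed by -0.46 and *MCM8*, a helicase of recombination, by -0.42, whereas *MCM3AP* was at -0.04 and *MCMDC2* at -0.04. *MCM9*, the partner of MCM8, was at -0.06. None of the 7 relatives passed 1.4-fold (0 genes), and their median was -0.11, the value of *GINS4*, whose probe sets went in opposite directions. Other DNA helicases had a median of -0.23 over 11 genes. Of these, 1 was lower past the threshold, *DNA2*, a helicase and nuclease of Okazaki fragments and broken ends (-0.52). *CHD1L*, a chromatin remodeller, came next at -0.44, and *HLTF* and *HELB* were the highest at -0.0002 and 0.01.

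**Figure D4:**
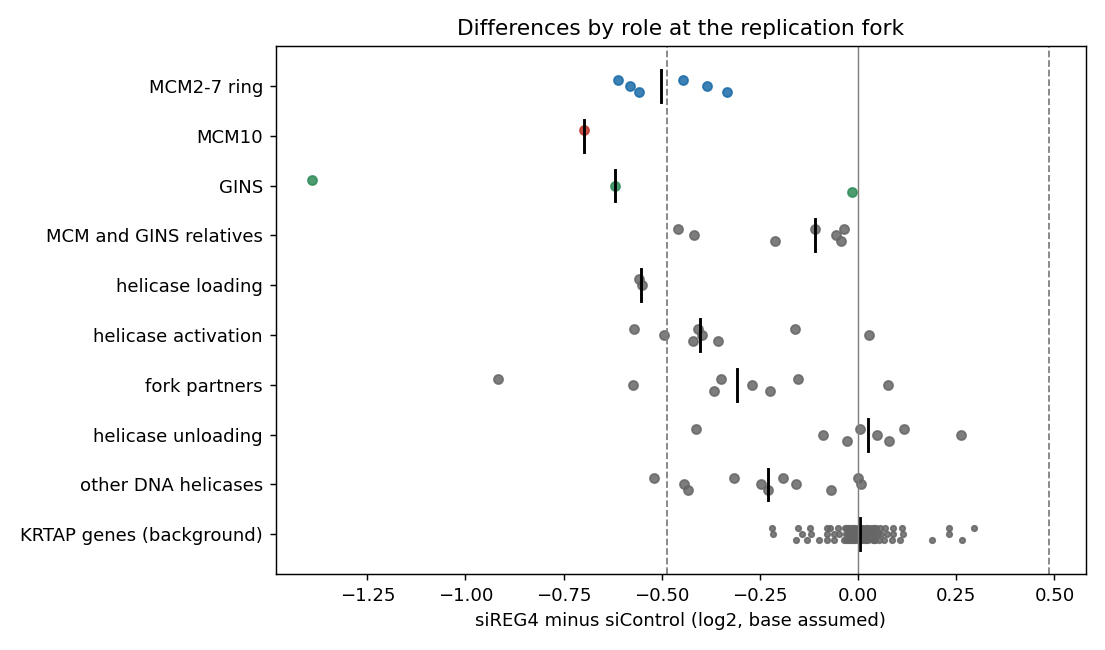
Differences between siREG4 and siControl (horizontal axis, log2 with the base assumed) by role, 1 dot per gene. Black bars are medians, dashed lines mark 1.4-fold, and dots are offset vertically for sight only. The ring, *MCM10* and the loading genes lie to the left of the *KRTAP* genes, the GINS genes are spread out, and the unloading genes surround 0.

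Proliferation markers were lower as well. Of 12 such genes, among them *TOP2A*, which is also counted with the fork partners, 11 were below 0 and 3 were lower past 1.4-fold, with a median of -0.35. Cyclin A2 (*CCNA2*, -0.63) and *CDK1* (-0.61) were the lowest, *PLK1* was at -0.16 and *CCND1*, which encodes cyclin D1, at 0.01. Their part in the values of the helicase genes was not tested. Markers of other cell types had medians of 0.01 over 4 fibroblast and endothelial genes and 0.03 over 5 immune genes. The 1 gene of these past the threshold was *CD68* (-0.75), which encodes a lysosomal protein.

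E2F matches in the windows of the other pathway genes were found at differences from -0.57 (*PCNA*) to -0.0002 (*HLTF*). Of the genes with a match, *HLTF*, *TIPIN* and *HROB* lay within the range of the *KRTAP* genes. Among the measured genes with a window, they were held by 2 of 2 loading genes (*CDT1* and *CDC6*), 2 of 6 activation genes (*CDC7*, -0.57, and *TOPBP1*, -0.40) and 3 of 8 fork partners (*PCNA*, -0.57, *CLSPN*, -0.27, and *TIPIN*, -0.15). They were also held by 3 of 5 relatives (*MCMBP*, -0.46, *MCM8*, -0.42, and *HROB*, -0.21), 1 of 7 unloading genes (*LRR1*, -0.41) and 1 of 9 other DNA helicases (*HLTF*, -0.0002). The values of *CLSPN* and *HLTF* are means over 2 probe sets each. *FEN1*, the lowest of these pathway genes, held none of the letters searched. Most genes with a window on the activation, fork and other helicase lists held no match either. These lists were nonetheless mostly below 0, at 7 of 8, 7 of 8 and 10 of 11 measured genes. A link between match and difference within the lists was not tested.

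The E2F match was then set against the differences of all genes. Among genes other than the members, 571 measured genes had a match in a window and 10157 had none. Of those with a match, 26 (4.55%) were lower and 6 (1.05%) higher past 1.4-fold, and of those without, 1.68% were lower and 1.56% higher. The medians were -0.03 and 0.0. Most genes with a match thus did not pass 1.4-fold in either direction. Base composition of the windows was not compared.

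*MCM7* carries the microRNA genes *MIR106B*, *MIR93* and *MIR25* inside its own span on chromosome 7, on the same strand, and their probe sets allowed a host gene to be set beside its passengers. The mature strands usually studied are shown from RefSeq with bases 2 to 8, the seed that pairs with target mRNAs, in capitals. The first 2 share a seed and the last does not.

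hsa-miR-106b-5p, chr7:100094043-100094063, minus strand: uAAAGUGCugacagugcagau
hsa-miR-93-5p, chr7:100093815-100093837, minus strand: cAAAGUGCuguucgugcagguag
hsa-miR-25-3p, chr7:100093571-100093592, minus strand: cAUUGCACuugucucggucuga

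All 3 microRNA genes were above 0 while *MCM7* was at -0.39. *MIR25* was at -0.24 in siControl and 0.24 in siREG4, a difference of 0.47, just under the threshold. *MIR93* differed by 0.20 and *MIR106B* by 0.08. For scale, the 1022 named microRNA genes had a median of 0.0 and an SD of 0.14 across genes, and 13 of them were at or above *MIR25*, itself included, and 64 at or above *MIR93*. *MIR106B* lay within the range of the *KRTAP* genes, as did *MIR93*. Which transcripts these probe sets read was not examined, so the values are not taken as levels of the mature strands.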

How the data were processed

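Total RNA of 1 siControl and 1 siREG4 sample of HT29 cells was prepared with the WT PLUS kit for Affymetrix Human Gene 2.0 ST arrays. The authors evaluated the arrays in GeneSpring and deposited log2 values for 44629 probe sets, centred per probe set: both columns sum to 0 within 1e-06, so that each probe set holds 1 difference and no level. The log base was taken as 2. How background, summarization, normalization and filters were handled is not stated in the labels or methods.

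An annotation of the platform named 15835 probe sets with 1 symbol each, which covered 14812 genes. The other 28794 were unnamed here. The difference was siREG4 minus siControl, averaged over the probe sets of a gene. Genes past 1.4-fold were counted. No test was made, since there was 1 array per group. The counting was checked on simulated data. Members and gene lists were chosen with earlier results of these data known. All members were named, with the lowest 2 and highest 2 genes of each list of pathway genes, microRNAs and proliferation markers, all where 5 or fewer were measured, and genes of the loading, activation, fork and relatives lists past 1.4-fold; *CDC45*, *GINS4*, *MCM9*, *TOP2A*, the named markers of cell types and genes named for a motif were added after their values were seen. Lists of the proteasome ATPase ring and the CCT chaperonin ring had 0 measured genes. Of 9 measured colon epithelium markers, 1 was higher past 1.4-fold (*KRT20*, 0.54) and 0 lower, with a median of -0.01, from *CDX2* (-0.26). Promoter and microRNA sequences came from RefSeq (GRCh38.p14). Alternatives covered centring, quantile normalization, the choice of probe set, the fold threshold, the genes counted and the group summary. Python 3.11.15, numpy 2.4.6, pandas 2.3.3 and matplotlib 3.10.9 were used.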

Additional observations from a re-analysis of the deposited data

How the results depend on the processing

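The members had 1 probe set each, and both array medians were 0.0, so neither the choice of probe set nor median centring could move them. Quantile normalization moved *GINS1* to -1.48, and moved the other members by less than the *KRTAP* SD of 0.09. A 2-fold threshold left 1 of the 10 members, *GINS1*, and 13 lower and 26 higher named genes, and a 1.5-fold threshold left 4 members and 126 lower and 140 higher genes, by the stricter limit. Counting all 44629 probe sets gave 491 lower and 466 higher, against 248 and 224 of the 14812 named genes. The counts rose since more features were counted, and their shares of the features did not. Chosen after seeing the data, adding *GINS4* to the GINS subunits gave a median of -0.36, and leaving out *GINS1* gave -0.32. The ring median then lay 0.14 and 0.19 below theirs (-0.14 and -0.19). The difference between these settings comes from the genes counted. No paired analysis was possible because each group had 1 array. No filter on signal could be applied to centred values.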
